A study of Mus musculus with 32 samples.

Results

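Autophagy machinery genes encode the proteins that build the autophagosome and the receptors that load it. They were taken as a list of 37 gene symbols, grouped by the known role of each protein, and all 37 of 37 were found among the 18588 genes of the table. Microglia were taken from the forebrains of female mice with CD11b MicroBeads, which hold cells that carry the surface protein CD11b, and their RNA was sequenced. The study compared rTg4510 with wild type (WT) mice at 2, 4, 6 and 8 months of age, in 4 libraries for each genotype and age. rTg4510 mice carry human tau with the P301L mutation behind a tetracycline-responsive element and a second transgene that drives the transactivator from the CaMKIIα promoter, so that mutant tau is made in forebrain neurons and not by design in microglia. WT animals were littermates with neither transgene and had the strain label 129/FVB F1. The genotypes thus differ in both transgenes, and effects of tau and of the transactivator cannot be told apart here. Each library came from pooled forebrains of several animals, so the spread given below is that between pools. The authors left out 4 libraries on sequencing quality (WT replicate 3 and rTg4510 replicate 3 at 4 months, and WT replicate 4 and rTg4510 replicate 4 at 8 months), which left 28: 4 for each genotype at 2 and 6 months and 3 at 4 and 8 months.

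Macroautophagy begins when the ULK1 kinase complex is released from inhibition and activates the class III phosphatidylinositol 3-kinase (PI3K) complex, which marks the forming membrane with the lipid PI3P. WIPI proteins read that lipid, ATG9A vesicles and ATG2 proteins supply membrane, and a conjugation system built from ATG7, ATG3, ATG10 and the ATG12, ATG5 and ATG16L1 complex attaches ubiquitin-like ATG8 proteins (the LC3 and GABARAP families) to it. Cargo receptors such as p62 (Sqstm1) and optineurin (Optn) hold ubiquitin-tagged cargo on one side and ATG8 proteins on the other. Microglia use parts of the same machinery in LC3-associated phagocytosis of debris.

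Each value is the log2 signal of a gene, deposited with the same median, 5.63, in every library, and differences are log2 differences of rTg4510 minus WT with their standard error (SE). The depth of each library is unknown from these values. A gene was called when its false discovery rate (FDR, limma with unmoderated variance over all 18588 genes) was under 0.05, and it was a differentially expressed gene (DEG) when it also changed by more than 1.5 fold. The lowest value of any member in the 28 libraries was 2.88, at least 1.30 above the lowest value of its own library. The 25th percentile of mean signal over all genes was 4.53. Of the members, 33 lay above it, and Optn and Atg16l2 were among those below. The spread between libraries of a group (pooled SD) ran from 0.0687 for Ulk2 to 0.308 for Map1lc3a, so that small shifts were resolved for Ulk2 and not for Map1lc3a.

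All 8 microglia markers were in the table (for example Cx3cr1, Tmem119 and P2ry12), and their summed signal (log2 of the sum) lay between 14.70 and 15.17 in WT and between 14.39 and 14.92 in rTg4510 libraries. At 4, 6 and 8 months every rTg4510 library lay below every WT library of its age in this sum. At 8 months, for example, it was 14.39 to 14.50 against 14.70 to 14.97. At 2 months the genotypes overlapped. Of the 8 microglia markers, 3, 4, 5 and 5 were lower in rTg4510 at 2, 4, 6 and 8 months, and 0, 1, 2 and 1 were higher. Summed markers of other cells are given as rTg4510 against WT ranges over 4 to 8 months together, which overlapped for every list. Within each of these ages, however, every rTg4510 library lay below every WT library for neutrophil and for astrocyte markers. The same held for neurons at 4 and 6 months, border macrophages and monocytes at 4 months and oligodendrocytes at 6 months. Neutrophil markers (5 of 5 found) lay between 7.19 and 8.86 against 8.82 to 10.19, with 0, 4 and 4 called lower at 4, 6 and 8 months. Astrocyte markers (6 of 6 found) lay between 9.50 and 10.17 against 10.16 to 11.54, but moved both ways: Gfap was higher (1.52 at 6 months, FDR 0.000430, and 1.797 at 8 months, FDR 0.000444 by limma), while Slc1a3 and Aqp4 were lower at both ages. Endothelial markers (5 of 5, 6.80 to 8.07 against 6.85 to 8.76) also split at 6 months, with Flt1 higher (1.89, FDR 2.42e-06) and 3 lower, among them Pecam1 (-2.12, FDR 2.01e-10 by limma). Of the border macrophage markers (4 of 4, 9.67 to 10.15 against 9.99 to 10.86), 1 was lower at 6 months and all 4 were lower in the mean of the ages. The other lists were those of neurons (4 of 8 found, 4.34 to 6.42 against 5.66 to 7.95, 1 lower at 6 months), oligodendrocytes (6 of 6, 7.31 to 9.53 against 7.50 to 10.52, 1 lower at 8 months), monocytes (2 of 2, 5.86 to 7.55 against 6.58 to 7.28, 1 lower at 4 and at 6 months) and lymphocytes (3 of 4, 3.45 to 6.61 against 4.09 to 6.22, 1 lower in the mean of the ages). The part of these shifts in the members' differences was not tested, and in RNA from many cells a change in the share of a cell type and a change in RNA per cell cannot be told apart.

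A few members rose strongly in rTg4510 microglia while most of the machinery moved little. In the mean of the ages the shares of members called were near those of all genes, given below. The ATG8 genes Gabarap, Gabarapl1 and Map1lc3b, the receptor genes Sqstm1 and Optn, and Atg16l2 passed 1.5 fold upward at 1 age or several, and no member passed it downward at any age. The members called lower at 1 age or several were in the kinase, PI3K and membrane supply groups and in the receptors. No difference at any age was lower than -0.37 on the log2 scale. Atg4c, of the ATG4 proteases, and the receptor gene Nbr1 were called lower in the mean of the ages alone. At 2 months 2 of 37 members were higher in rTg4510, against 4.76% of all genes, and none was lower by limma, against 1.27%; at an unadjusted p under 0.05, 8 members differed in either direction, against 16.5% of all genes. At 4 months 5 members were higher and 5 lower (all genes 14.1% and 9.1%), at 6 months 8 and 6 (19.1% and 14.9%) and at 8 months 8 and 4 (16% and 9.78%). Averaged over the 4 ages 9 members were higher and 9 lower, 24.3% each, against 24.2% and 22.4% of all genes, and the median difference was -0.02 for the members and -0.03 for all genes. At single ages the widest gap was at 8 months, 21.6% of members higher against 16% of all genes, which is 8 genes of 37. With all 32 libraries 3 members were lower at 4 months and 1 each at 6 and 8 months. The lower calls of Tax1bp1 and Uvrag at 4 months therefore rest on the 28 libraries. So do those of Rb1cc1 and Atg9a at 6 and 8 months, Atg14, Uvrag and Ambra1 at 6 months and Calcoco1 at 8 months. Among the higher calls, this held for Sqstm1 and Gabarapl2 at 2 months and Atg16l2 and Map1lc3b at 4 months. It also held for Becn1 and Map1lc3b at 6 months and Ulk1 and Map1lc3b at 8 months. Differences at 2 and 6 months were the same in both fits, while their FDR uses a spread shared by all groups. Fitted with the 2 groups of an age alone, no member was called lower at 4 or 8 months.

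**Figure D1:**
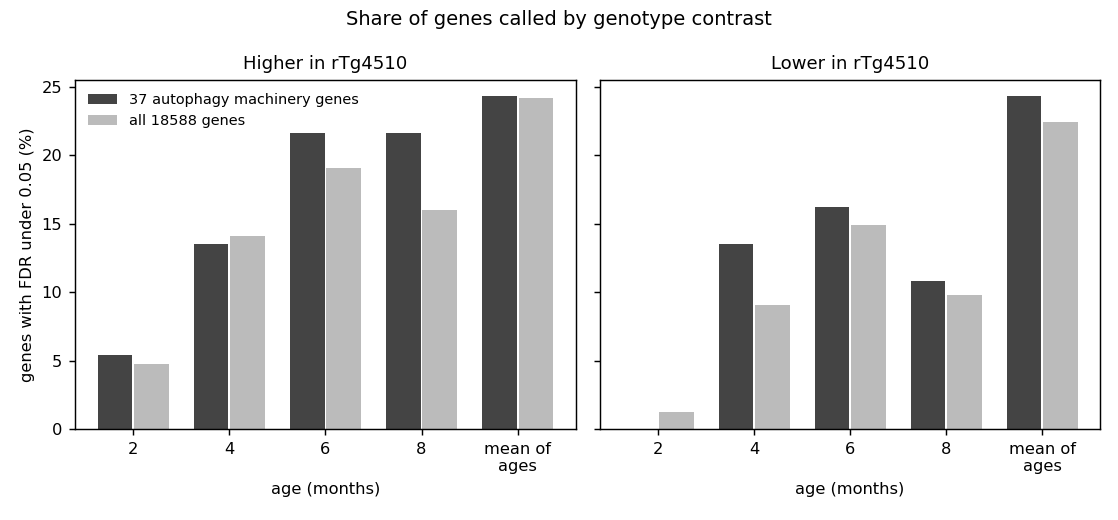
Percentage of the 37 members (dark bars) and of all 18588 genes (light bars) with an FDR under 0.05, higher (left) or lower (right) in rTg4510, at each age in months and for the mean of the ages. The paired bars are closest for the mean of the ages (24.3% and 24.2% higher) and farthest apart at 8 months (21.6% and 16% higher), and no member was lower at 2 months.

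DEGs among the members were all up-regulated: 0 at 2 months, 4 (10.8%) at 4 months, 6 (16.2%) at 6 months and 6 (16.2%) at 8 months. Of all genes, 1.58%, 9.47%, 11.3% and 10.5% were up-regulated DEGs at these ages. Down-regulated DEGs made up 0.403%, 4.33%, 8.54% and 5.37% of all genes at those ages. Over the ages, 10 members were higher at 1 or more of them, 9 were lower and 18 were called at none, against 22.6%, 19.4% and 58.3% of all genes, and no member was called in both directions. The 6 members past 1.5 fold upward at any age and the 0 downward stand against 14.1% and 11.1% of all genes. Optn, Sqstm1, Gabarap, Map1lc3b and Atg16l2 were higher at 4, 6 and 8 months, and Ulk2 and Rb1cc1 were lower at those 3 ages, against 11.1% and 5.05% of all genes. Libraries of the genotypes without overlap were common in the table. At 2, 4, 6 and 8 months every rTg4510 library lay above WT for 6, 7, 9 and 10 members. Of all genes this held for 7.49%, 19.1%, 18.2% and 21.2%. Every rTg4510 library lay below WT for 0, 7, 5 and 4 members, against 3.51%, 17.5%, 14.6% and 15.5% of all genes.

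**Figure D2:**
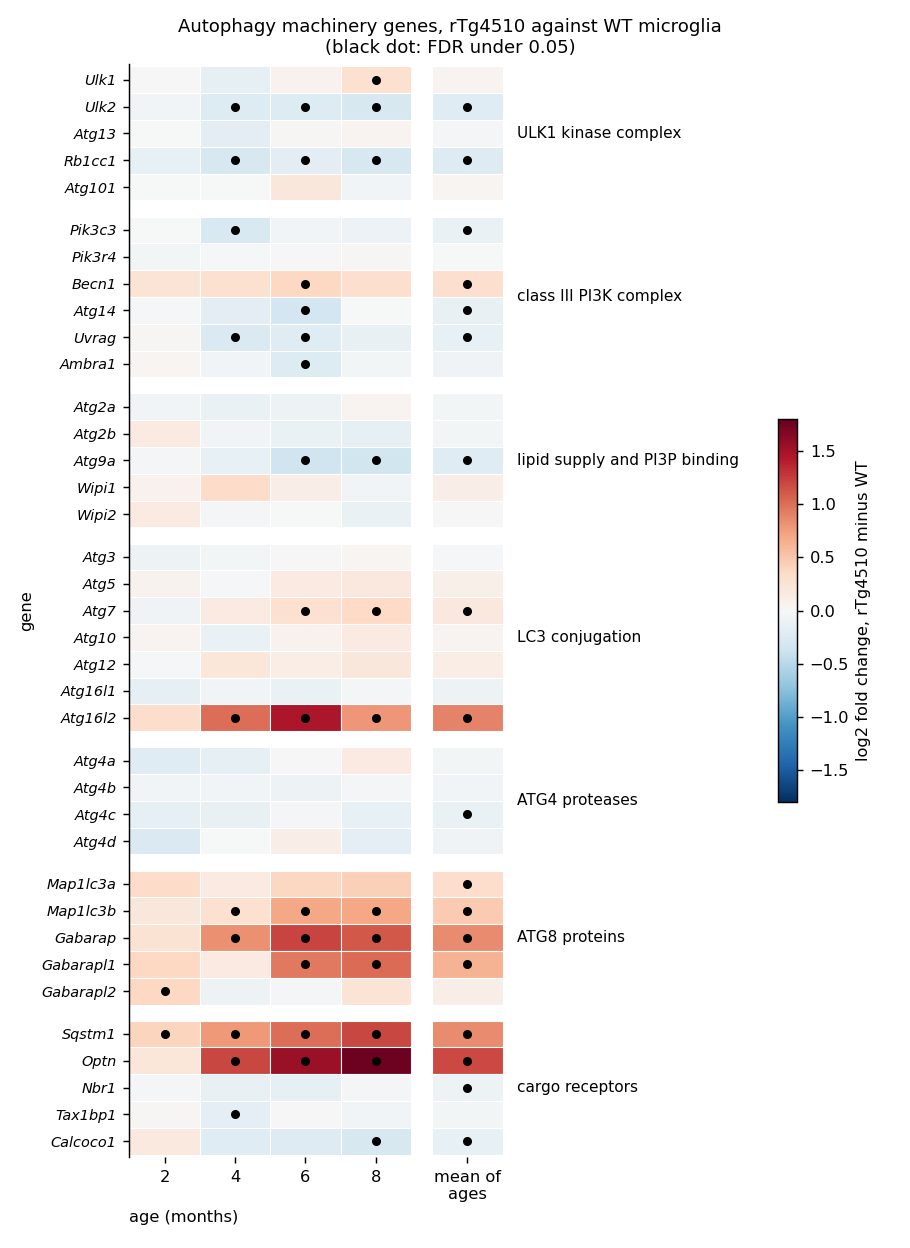
Log2 fold change (rTg4510 minus WT, colour) of each of the 37 members (rows, grouped by role) at each age in months and for the mean of the ages (columns), with a black dot where the FDR was under 0.05. Dark red cells belong to Optn, Sqstm1, Gabarap, Gabarapl1, Map1lc3b and Atg16l2, with 1.76 for Optn at 8 months the highest, and no blue cell is as dark.

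Of the 5 cargo receptor genes, Optn and Sqstm1 rose, Nbr1 and Calcoco1 were lower averaged over the ages, and Tax1bp1 was lower at 4 months. Optineurin binds ubiquitin and ATG8 proteins and takes part in the removal of damaged mitochondria and bacteria. At 2 months its signal was 3.65, 3.83, 3.44 and 3.30 in the WT libraries and 4.09, 3.58, 3.80 and 3.63 in the rTg4510 libraries. The genotypes overlapped at that age and did not differ past the threshold (difference 0.22, SE 0.16, FDR 0.556 by limma). At 4 months WT libraries were at 3.50, 3.55 and 3.83 and rTg4510 libraries at 4.99, 4.67 and 4.83. At 6 months the values were 3.53, 3.37, 3.31 and 3.38 in WT and 4.93, 5.06, 4.71 and 5.12 in rTg4510. At 8 months they were 3.52, 3.68 and 2.88 in WT and 4.96, 5.23 and 5.16 in rTg4510. From 4 months on, every rTg4510 library lay above every WT library, with 1 WT library at 8 months far below the other two. The differences were 1.20 (SE 0.18, FDR 2.74e-05) at 4 months, 1.56 (SE 0.16, FDR 6.44e-08) at 6 months and 1.76 (SE 0.18, FDR 1.47e-07 by limma) at 8 months, the last a fold of 3.38.

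Sqstm1 encodes p62, a receptor for ubiquitinated aggregates that is itself degraded by autophagy. It was one of the 2 members called at 2 months, where WT libraries were at 6.90, 6.64, 6.90 and 6.99 and rTg4510 libraries at 7.34, 7.23, 7.23 and 7.23. At 4 months WT libraries were at 6.94, 6.67 and 7.02 and rTg4510 libraries at 7.60, 7.63 and 7.75. The genotypes did not overlap at either age. At 6 months the values were 6.64, 6.78, 6.82 and 6.95 in WT and 7.57, 7.66, 7.80 and 8.17 in rTg4510. At 8 months they were 6.63, 6.78 and 6.73 in WT and 7.98, 8.04 and 7.72 in rTg4510, again without overlap. The difference was 0.40 at 2 months (SE 0.11, FDR 0.0304), 0.78 at 4 months (SE 0.13, FDR 8.35e-05), 1.01 at 6 months (SE 0.11, FDR 2.63e-07) and 1.20 at 8 months (SE 0.13, FDR 2.41e-07 by limma). The call at 2 months was lost without WT replicate 2 or 3 or any 1 of the 4 rTg4510 libraries of that age, where the difference was 0.33 to 0.42 with FDR from 0.0553 to 0.128. That call was also lost with the 2 groups of the age alone (FDR 0.0669) and with quantile normalization (0.37, FDR 0.0526).

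The other 3 receptors moved little or the other way. Calcoco1, a receptor for the endoplasmic reticulum, had a difference of 0.18 at 2 months (FDR 0.337), -0.21 at 4 months (FDR 0.161), -0.23 at 6 months (FDR 0.0585) and -0.30 at 8 months (FDR 0.0393 by limma). With the replicate number as a block at every age, the FDR at 8 months was 0.0622. A pairing was clear at 6 and 8 months, partly seen at 2 months and not seen at 4 months. The call at 8 months was also lost without WT replicate 1 or 2 or rTg4510 replicate 1 or 3 of that age (-0.24 to -0.29, FDR 0.0982 to 0.160). Nbr1, which binds ubiquitinated cargo and p62, was called in the mean of the ages alone (difference -0.10, FDR 0.0439, lost in 18 of the 28 fits that left out 1 library), and Tax1bp1, a receptor also tied to inflammatory signalling, differed by -0.17 at 4 months (FDR 0.0263) and by 0.01 at 6 months (FDR 0.875). The Tax1bp1 call was lost without WT replicate 1 or 2 or rTg4510 replicate 1 or 2 of that age (-0.12 to -0.17, FDR 0.0675 to 0.150), and with moderated variance (FDR 0.0743). With quantile normalization Tax1bp1 was also called lower at 8 months (-0.19, FDR 0.0107, against -0.06 and FDR 0.478) and in the mean of the ages (-0.15, FDR 3.69e-05, against -0.05 and FDR 0.116).

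Of the 5 ATG8 genes, Gabarap, Gabarapl1, Map1lc3b and Map1lc3a were higher averaged over the ages, and Gabarapl2 was not called (difference 0.12, FDR 0.0793). ATG8 proteins are the ubiquitin-like proteins that are joined to the lipid of the autophagosome membrane. For Gabarap, WT libraries at 2 months were at 6.95, 6.91, 7.003 and 6.92 and rTg4510 libraries at 7.26, 7.02, 7.30 and 7.28. At 4 months they were at 6.91, 6.78 and 6.88 in WT and 7.46, 7.76 and 7.81 in rTg4510. The genotypes did not overlap at these ages, though the difference of 0.27 at 2 months did not pass the threshold (SE 0.11, FDR 0.206). At 6 months WT libraries were at 6.67, 6.91, 7.15 and 7.07 and rTg4510 libraries at 8.05, 8.02, 8.53 and 8.04. At 8 months they were at 6.71, 6.95 and 6.88 in WT and 7.96, 7.95 and 7.97 in rTg4510. One rTg4510 library at 6 months stood above the other three, and all lay above WT. The difference was 0.82 at 4 months (SE 0.13, FDR 4.52e-05), 1.21 at 6 months (SE 0.11, FDR 1.59e-08) and 1.11 at 8 months (SE 0.13, FDR 6.67e-07 by limma), or 1.76-, 2.32- and 2.16-fold.

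Gabarapl1, a close relative, was called at 6 and 8 months. At 2 months it was at 5.15, 5.16, 5.002 and 5.03 in WT and at 5.45, 5.52, 5.34 and 5.55 in rTg4510. The genotypes did not overlap at 2 months, but the difference of 0.38 was not called (FDR 0.151 by limma). With the 2 groups of that age alone it was called (FDR 0.0382). At 4 months Gabarapl1 was at 5.57, 5.91 and 5.75 in WT and 6.28, 5.76 and 5.67 in rTg4510. At 4 months the genotypes overlapped with a difference of 0.16 (SE 0.16, FDR 0.537 by limma). At 6 months it was at 4.96, 5.13, 4.90 and 5.36 in WT and 5.91, 6.07, 6.34 and 5.81 in rTg4510. At 8 months it was at 5.60, 5.37 and 5.31 in WT and 6.30, 6.29 and 6.76 in rTg4510. The genotypes were apart at 6 and 8 months, with differences of 0.95 (SE 0.14, FDR 1.83e-05) and 1.02 (SE 0.16, FDR 5.39e-05 by limma). The change of the difference from 4 to 8 months, 0.86 (SE 0.23), did not pass the threshold (FDR 0.167).

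Map1lc3b encodes LC3B, the ATG8 protein most used to count autophagosomes. Map1lc3b at 2 months was at 6.09, 6.05, 6.01 and 5.97 in WT and 6.17, 6.45, 6.12 and 6.19 in rTg4510. Map1lc3b at 4 months was at 6.29, 6.16 and 5.95 in WT and 6.36, 6.53 and 6.39 in rTg4510. The genotypes lay side by side without overlap at both ages. Map1lc3b at 6 months was at 5.83, 5.66, 5.99 and 5.86 in WT and 6.73, 6.42, 6.48 and 6.49 in rTg4510. Map1lc3b at 8 months was at 5.73, 5.49 and 5.84 in WT and 6.42, 6.39 and 6.35 in rTg4510. Again every rTg4510 library lay above every WT library. The difference was 0.29 at 4 months (SE 0.11, FDR 0.0484), 0.70 at 6 months (SE 0.09, FDR 3.11e-06) and 0.70 at 8 months (SE 0.11, FDR 2.59e-05 by limma). The call at 4 months was lost in 20 of 28 fits when 1 library was dropped, and the difference was 0.20 (FDR 0.246) without WT replicate 4 of that age. With all 32 libraries, among them the left-out rTg4510 library at 3.66, the difference was -0.14 at 4 months (FDR 0.820), 0.70 at 6 months (FDR 0.222) and 0.75 at 8 months (FDR 0.200). No 6-month library had been left out, so the difference at that age was unchanged, while its FDR uses a spread shared by all groups.

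Map1lc3a, which encodes LC3A, was called only in the mean of the ages (difference 0.33, SE 0.12, FDR 0.0303), with 0.34, 0.16, 0.39 and 0.42 at 2, 4, 6 and 8 months. That call was lost without WT replicate 4 at 4 months, WT replicate 1 at 8 months or rTg4510 replicate 1 or 3 at 8 months (0.29 to 0.31, FDR 0.0521 to 0.0624). Gabarapl2 was the other member called at 2 months: WT libraries were at 5.37, 5.45, 5.69 and 5.73 and rTg4510 libraries at 5.78, 5.90, 5.98 and 6.05, with a difference of 0.37 (SE 0.10, FDR 0.0385 by limma). Its difference was -0.09 at 4 months (FDR 0.633), -0.03 at 6 months (FDR 0.843) and 0.25 at 8 months (FDR 0.139). The call at 2 months was lost without WT replicate 1 or 2 or rTg4510 replicate 2, 3 or 4 of that age (0.30 to 0.38, FDR 0.0661 to 0.126). That call was also lost with the 2 groups of the age alone (FDR 0.168) and with the replicate block (FDR 0.0955). Gabarapl2 shares over 95% of its bases over at least 200 with the annotated genes Gm3724 and Gm6051 of the table, so its reads could be split and its values are uncertain.

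**Figure D3:**
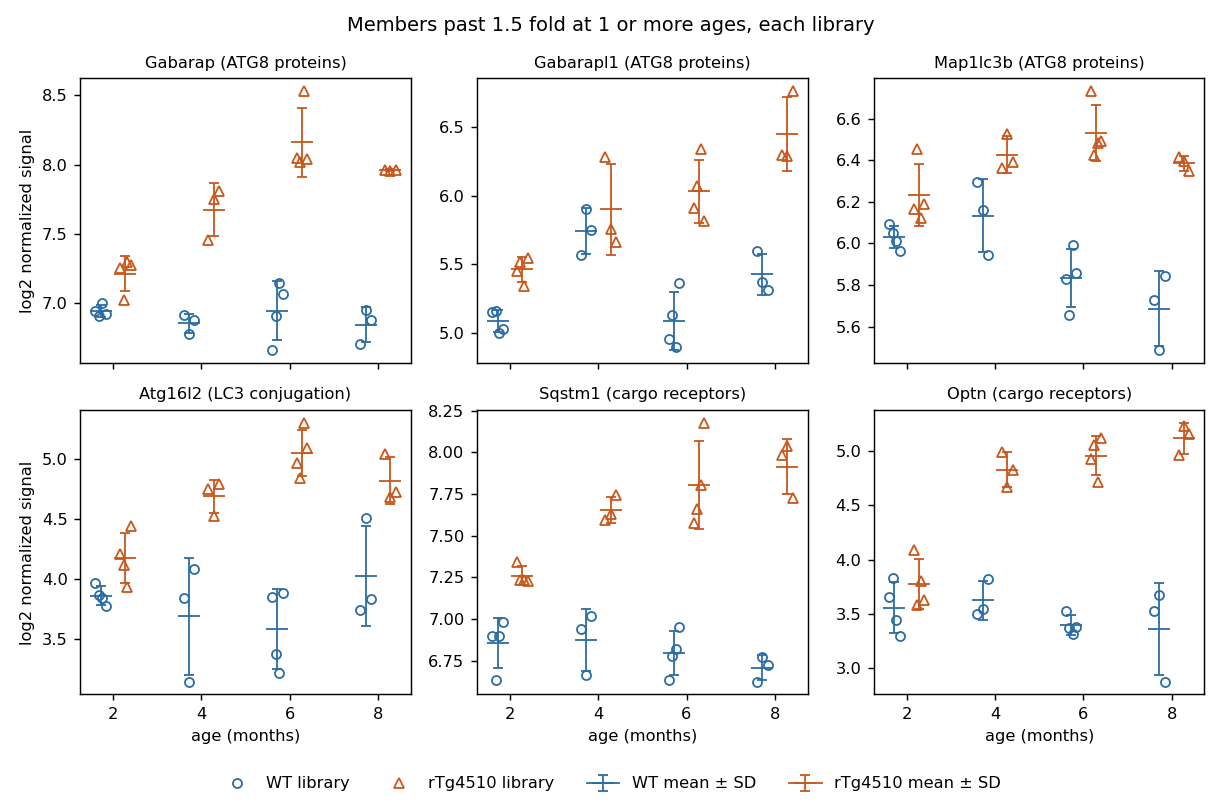
Log2 normalized signal (y axis, each panel with its own range) of the 6 members past 1.5 fold against age in months, with 1 open symbol for each library, circles for WT and triangles for rTg4510, and the mean ± SD of the group. At 6 and 8 months triangles lie above circles in all 6 panels, and at 4 months in all but Gabarapl1. Of all genes, 19.1%, 18.2% and 21.2% had every rTg4510 library above WT at 4, 6 and 8 months.

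The genes lie close to or across others on the genome, and the files do not say whether reads were counted by strand. A transcript of Sqstm1 shared 583 bases with Mrnip, one of Gabarapl1 379 bases with 1700101I11Rik and one of Becn1 1299 bases with Cntd1, and Map1lc3b overlaps Zcchc14. Mrnip differed by -0.24 at 6 months (FDR 0.415) and -0.37 at 8 months (FDR 0.316), and Zcchc14 by -0.25 (FDR 0.0339) and 0.02 (FDR 0.897). Neither was called higher at these ages. 1700101I11Rik differed by -0.67 at 6 months (FDR 0.604) and 0.40 at 8 months (FDR 0.825). Cntd1 was higher in the mean of the ages, as Becn1 was (difference 0.18, FDR 0.00733), and reads of these 2 genes could not be told apart over the shared bases. In all, 8 members shared such bases with another gene of the table. Atg4a shared 99.3% of 2115 bases with Atg4a-ps, and Uvrag shared at least 95% of 345 bases with Mettl6. The values of Atg4a and Uvrag, and the ratio of Atg4a over Atg4b, are therefore uncertain as those of Gabarapl2 are.

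Of the 7 genes of the conjugation system, Atg16l2 and Atg7 rose and the other 5 (Atg3, Atg5, Atg10, Atg12 and Atg16l1) were called at no age. Atg16l2 encodes a relative of ATG16L1, the protein that brings the conjugation complex to the membrane. At 2 months it was at 3.96, 3.86, 3.84 and 3.77 in WT and 4.21, 4.12, 3.94 and 4.44 in rTg4510. At 4 months it was at 3.84, 3.14 and 4.08 in WT and 4.75, 4.53 and 4.79 in rTg4510. The genotypes overlapped at 2 months and were apart at 4 months, where 1 WT library was far below the others. At 6 months it was at 3.85, 3.37, 3.22 and 3.89 in WT and 4.97, 4.85, 5.30 and 5.09 in rTg4510. At 8 months it was at 3.74, 4.51 and 3.83 in WT and 5.05, 4.69 and 4.73 in rTg4510. All rTg4510 libraries were above WT at both ages, by little for 1 WT library at 8 months. The difference was 0.32 at 2 months (SE 0.20, FDR 0.477), 1.001 at 4 months (SE 0.23, FDR 0.00234), 1.47 at 6 months (SE 0.20, FDR 4.19e-06) and 0.80 at 8 months (SE 0.23, FDR 0.0123 by limma). The call at 8 months was lost without WT replicate 1 (0.65, FDR 0.0694), WT replicate 3 (0.70, FDR 0.0580) or rTg4510 replicate 1 (0.68, FDR 0.0609), and the call at 4 months with all 32 libraries (0.64, FDR 0.130). With the 2 groups of the age alone neither was called (FDR 0.123 at 4 months and 0.156 at 8 months).

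Atg7 encodes the enzyme that activates both ubiquitin-like systems. Its libraries were at 5.59, 5.70, 5.83 and 5.75 in WT and 5.92, 6.01, 6.00 and 6.08 in rTg4510 at 6 months, and at 5.54, 5.72 and 5.75 in WT and 6.09, 5.94 and 6.07 in rTg4510 at 8 months. The genotypes did not overlap at those ages, with differences of 0.28 (SE 0.06, FDR 0.000802) and 0.36 (SE 0.07, FDR 0.000359 by limma). With the 2 groups of the age alone the FDR at 8 months was 0.0693. Atg3, the enzyme that passes ATG8 proteins to the lipid, stayed within 0.10 of WT at every age (from -0.09 to 0.04, FDR 0.610 to 0.900).

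Of the 5 genes of the ULK1 kinase complex, Ulk2 and Rb1cc1 fell, Ulk1 rose at 8 months and Atg13 and Atg101 were called at no age. Rb1cc1 encodes FIP200, the scaffold of the complex. At 2 months it was at 7.14, 7.19, 7.15 and 7.01 in WT and 6.92, 6.99, 6.90 and 7.07 in rTg4510. At 4 months it was at 7.10, 7.14 and 7.14 in WT and 6.81, 6.93 and 6.74 in rTg4510. The genotypes overlapped at 2 months and were apart at 4 months. At 6 months it was at 7.11, 7.04, 7.03 and 6.98 in WT and 6.83, 7.04, 6.78 and 6.73 in rTg4510. At 8 months it was at 6.94, 6.91 and 7.08 in WT and 6.62, 6.58 and 6.83 in rTg4510. At 6 months 1 rTg4510 library lay among the WT libraries, and at 8 months none did. The difference was -0.30 at 4 months (SE 0.08, FDR 0.00521), -0.19 at 6 months (SE 0.07, FDR 0.0260) and -0.30 at 8 months (SE 0.08, FDR 0.00456 by limma). The call at 6 months was lost without WT replicate 1 or without rTg4510 replicate 1, 3 or 4 of that age (FDR 0.0538 to 0.0925).

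Ulk2, one of the 2 kinases that start autophagy, was at 7.67, 7.65 and 7.88 in WT and 7.41, 7.36 and 7.52 in rTg4510 at 8 months, and differed by -0.25 at 4 months (SE 0.05, FDR 0.00126), -0.25 at 6 months (SE 0.05, FDR 0.000175) and -0.30 at 8 months (SE 0.05, FDR 0.000129 by limma). The genotypes did not overlap at these 3 ages. Ulk1, the other kinase, was at 5.51, 5.47 and 5.50 in WT and 5.71, 5.79 and 5.84 in rTg4510 at 8 months, a difference of 0.29 (SE 0.07, FDR 0.00197). The Ulk1 difference was -0.16 at 4 months (FDR 0.0799), and its change of 0.45 from 4 to 8 months fell just outside the threshold (SE 0.09, FDR 0.0511) but inside it with the replicate number as a block (FDR 0.0351).

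The 6 genes of the class III PI3K complex split: Becn1 was higher in the mean of the ages, Pik3c3, Atg14 and Uvrag were lower, and Pik3r4 and Ambra1 were not called there. Becn1 encodes beclin 1, the regulatory subunit that is also used in phagocytosis. Becn1 at 2 months was at 5.69, 5.64, 5.59 and 5.74 in WT and 5.83, 5.90, 5.83 and 6.10 in rTg4510. Becn1 at 4 months was at 5.91, 5.73 and 5.86 in WT and 6.11, 5.98 and 6.29 in rTg4510. At both ages the rTg4510 libraries lay above WT by a small step. Becn1 at 6 months was at 5.86, 5.72, 5.59 and 5.51 in WT and 5.94, 6.14, 5.88 and 6.22 in rTg4510. Becn1 at 8 months was at 5.45, 5.75 and 5.84 in WT and 5.75, 6.22 and 5.98 in rTg4510, with some overlap. The difference was similar at each age, 0.25, 0.29, 0.37 and 0.30, of which that at 6 months was called (SE 0.11, FDR 0.0103), and its mean over the ages was 0.30 (SE 0.06, FDR 0.000202 by limma).

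Pik3c3, the catalytic subunit, fell by 0.29 on the log2 scale at 4 months (FDR 0.00815) and differed by -0.06 at 6 months (FDR 0.487). Uvrag, the subunit of the complex that acts in endosome maturation, differed by -0.27 at 4 months (FDR 0.0199) and -0.22 at 6 months (FDR 0.0196). The call of Uvrag at 4 months was lost without WT replicate 4 (-0.20, FDR 0.125) or rTg4510 replicate 2 (-0.22, FDR 0.0922), and that at 6 months without rTg4510 replicate 3 (-0.18, FDR 0.0744). Atg14, which directs the complex to autophagosomes, differed by -0.33 (FDR 0.0112) and Ambra1, a regulator of beclin 1, by -0.25 (FDR 0.00900), both called at 6 months and at no other age. In the mean of the ages the Atg14 call (-0.14, FDR 0.0408) was lost in 17 of the 28 fits that left out 1 library.

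Among the 5 genes of lipid supply and PI3P binding, Atg9a fell and Atg2a, Atg2b, Wipi1 and Wipi2 were called at no age. Atg9a encodes the membrane protein of the vesicles that seed the autophagosome. Libraries at 2 months were at 4.92, 5.26, 5.15 and 5.25 in WT and 4.999, 5.20, 5.13 and 5.10 in rTg4510. Libraries at 4 months were at 5.21, 5.17 and 5.23 in WT and 5.01, 5.26 and 4.89 in rTg4510. The genotypes overlapped at both ages. Libraries at 6 months were at 5.23, 5.40, 5.38 and 5.12 in WT and 4.89, 4.91, 5.02 and 4.86 in rTg4510. Libraries at 8 months were at 4.94, 5.14 and 5.25 in WT and 4.87, 4.75 and 4.70 in rTg4510. Every rTg4510 library lay below WT at 6 and 8 months, with differences of -0.37 (SE 0.09, FDR 0.00229) and -0.34 (SE 0.10, FDR 0.0153 by limma). The call at 8 months was lost without WT replicate 3 (-0.27, FDR 0.0876) or without rTg4510 replicate 2 or 3 (FDR 0.0503 and 0.0610).

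The 4 ATG4 proteases trim ATG8 proteins before conjugation and release them from the membrane. None was called at any age. Atg4c had the largest mean difference, -0.12 (SE 0.05, FDR 0.0471 by limma), and the call was lost in 19 of the 28 fits that left out 1 library. At 2 months it was at 5.57, 5.93, 5.72 and 5.77 in WT and 5.69, 5.48, 5.49 and 5.69 in rTg4510. At 8 months it was at 6.05, 5.94 and 5.98 in WT and 5.98, 5.76 and 5.82 in rTg4510. At 4 months it was at 6.10, 5.82 and 5.96 in WT and 5.77, 5.89 and 5.81 in rTg4510, and the genotypes overlapped at all 4 ages, also at 6 months (6.12, 6.12, 6.03 and 5.80 in WT against 5.93, 5.79, 6.08 and 6.10 in rTg4510).

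Over the 18 members called at no age, the difference ran from -0.27 (Atg4d) to 0.34 (Map1lc3a) at 2 months and from -0.17 (Atg4d) to 0.42 (Map1lc3a) at 8 months. For the mean of the ages the 95% interval of each of the 18 lay inside a change of 1.5 fold in either direction. At single ages that held for 16, 15, 17 and 15 of the 18 at 2, 4, 6 and 8 months, so that a change of 1.5 fold at 1 age was not excluded by the interval for 1 to 3 of them.

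The age course was compared within each genotype, with 8 months set against 2 months. In rTg4510 microglia 6 members were higher at 8 months (Optn, Gabarapl1, Gabarap, Sqstm1, Atg16l2 and Atg7) and 4 were lower (Calcoco1, Ulk2, Atg9a and Rb1cc1), against 10.6% and 11% of all genes. The largest of these were 1.34 for Optn (SE 0.17, FDR 5.06e-06), 0.99 for Gabarapl1 (SE 0.15, FDR 6.72e-05) and -0.66 for Calcoco1 (SE 0.10, FDR 4.00e-05 by limma). In WT microglia no member was higher and 1 was lower, Ulk1 (-0.27, SE 0.06, FDR 0.0178), against 0.818% and 3.39% of all genes, and at an unadjusted p under 0.05, 11 members differed in either direction, against 19.2% of all genes. The Ulk1 call was lost without WT replicate 2 or 3 at 2 months or WT replicate 1 or 2 at 8 months (-0.21 to -0.28, FDR 0.0507 to 0.0667). In rTg4510 the Atg16l2 call (0.65, FDR 0.0342) was lost without rTg4510 replicate 1, 2 or 3 at 2 months or any 1 of the 3 at 8 months (0.53 to 0.71, FDR 0.0546 to 0.152), and that of Atg9a (-0.34, FDR 0.0127) without rTg4510 replicate 3 at 8 months (-0.30, FDR 0.0579). With all 32 libraries the Calcoco1 difference was -0.43 (FDR 0.111).

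The difference between the genotypes itself changed from 2 to 4 months for 1 member, Optn (0.99, SE 0.24, FDR 0.0133 by limma), against 7.33% of all genes. With all 32 libraries it was 0.86 (FDR 0.185). Gabarap lay next to the threshold (0.55, SE 0.17, FDR 0.0501) and passed it in 5 of the 28 fits that left out 1 library. From 4 to 8 months the difference changed for 0 members by limma, against 0.145% of all genes, and for 6 at an unadjusted p under 0.05, against 8.49% of all genes.

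Ratios between paralogs within a library were compared because they do not depend on how a library is scaled. For 10 pairs the labels WT and rTg4510 were permuted within each age over all 1960000 arrangements (two-sided exact test), with p-values adjusted over the 10 pairs. Atg16l2 over Atg16l1 was higher in rTg4510 by 0.99, or 1.99-fold, on average over the ages (adjusted p = 1.02e-05, from a p of 1e-06, the smallest these arrangements can give), and the ratio lay above the WT mean of its age in 14 of 14 rTg4510 libraries. The gap was 0.49, 1.06, 1.59 and 0.83 at 2, 4, 6 and 8 months, and Atg16l1 itself was called at no age. Gabarapl2 over Gabarap was lower by 0.73 in rTg4510 (1.66-fold lower, exact adjusted p = 0.000327). This ratio lay below the WT mean of its age in 11 of 14 rTg4510 libraries. Its difference was 0.10 at 2 months, where the genotypes overlapped, and -0.91, -1.24 and -0.86 at 4, 6 and 8 months. Ulk1 over Ulk2 was higher by 0.27 (1.21-fold, exact adjusted p = 0.000337), with 0.07, 0.08, 0.33 and 0.59 at the 4 ages. It lay above the WT mean of its age in 14 of 14 rTg4510 libraries.

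The other 7 ratios did not pass the threshold. They were Gabarapl1 over Gabarap (-0.23, exact adjusted p = 0.188), Map1lc3a over Map1lc3b (-0.14, exact adjusted p = 0.389), Wipi1 over Wipi2 (0.12, exact adjusted p = 0.398) and Atg4c over Atg4b (-0.06, exact adjusted p = 0.398). Atg2a over Atg2b, Atg4a over Atg4b and Atg4d over Atg4b were within 0.02 of no difference (exact adjusted p = 0.892 for each).

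**Figure D4:**
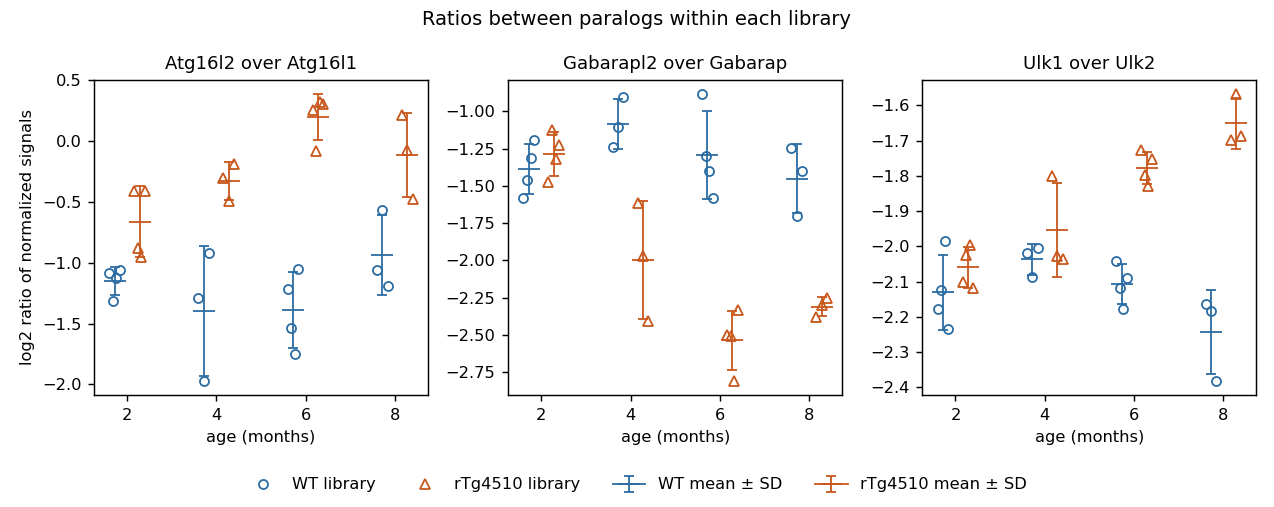
Log2 ratio of 2 paralogs within each library (y axis, each panel with its own range) against age in months, with circles for WT libraries, triangles for rTg4510 libraries and the mean ± SD of each group. Triangles lie above circles at every age for Atg16l2 over Atg16l1, below them from 4 months on for Gabarapl2 over Gabarap, and above them at 6 and 8 months for Ulk1 over Ulk2.

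Promoter windows of RefSeq (GRCm38.p6, from 250 bases before to 50 after the start of each gene) were searched on both strands for the CLEAR motif core CACGTG, which transcription factors of the MiT/TFE family bind upstream of lysosomal and autophagy genes. Of the 37 members 31 had a window. The core was in the windows of Atg14, Atg3, Atg5 and Atg7, 12.9% of the members matched against 7.15% of all windows and 11.2% of the windows of genes in the table. The longer form TCACGTGA was in that of Atg3 only (3.23% of members, 0.974% of all windows and 1.98% of table genes). None of the 6 members past 1.5 fold held CACGTG in this window, while of the 4 that did Atg7 rose, Atg14 was lower and Atg3 and Atg5 were called at no age. GGGCGG, the core bound by SP1, was in 22 windows (71.0% of members, 64.0% of table genes), among them those of Sqstm1, Optn, Map1lc3b, Gabarapl1 and Atg16l2. TGACNNNGC, the antioxidant response element core, was in 4 (12.9% against 16.6%), among them that of Map1lc3b. These 2 motifs were chosen after the values were seen. Bases within annotated exons or the gene itself are not printed. The stretches below show what lay before the start of 3 members that rose, and of Atg3, which did not, with GGGCGG (or CCGCCC on the other strand) and CACGTG in capitals.
Sqstm1, chr11:50210828-50210889, minus strand, 69 to 8 bases before the start: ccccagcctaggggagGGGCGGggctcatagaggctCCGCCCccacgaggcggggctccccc
Map1lc3b, chr8:121590241-121590360, plus strand, 197 to 78 bases before the start: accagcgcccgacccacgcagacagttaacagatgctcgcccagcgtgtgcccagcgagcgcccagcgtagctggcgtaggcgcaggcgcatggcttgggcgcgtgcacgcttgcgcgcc
Atg16l2, chr7:101302268-101302338, minus strand, 250 to 180 bases before the start: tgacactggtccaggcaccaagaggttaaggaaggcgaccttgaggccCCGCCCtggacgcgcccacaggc
Atg3, chr16:45158713-45158784, plus strand, 116 to 45 bases before the start: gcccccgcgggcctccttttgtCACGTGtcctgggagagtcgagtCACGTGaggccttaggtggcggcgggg
Atg3 carried CACGTG at 2 places in this stretch, and the stretch of Map1lc3b held neither motif, its GGGCGG lying outside the printed bases.

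A further 37 genes that act beside the core machinery (PI3P regulators, fusion SNAREs and tethers, mitophagy and reticulophagy receptors, AMPK) were counted in the same way, and 36 of them were found. At 2, 4, 6 and 8 months 1, 4, 9 and 7 were higher and 0, 5, 4 and 3 were lower, and 11 and 5 in the mean of the ages, shares of 30.6% and 13.9% against 24.2% and 22.4% of all genes. At the single ages the shares of all genes were 4.76%, 14.1%, 19.1% and 16% higher and 1.27%, 9.1%, 14.9% and 9.78% lower. The genes past 1.5 fold were Nrbf2, Snap29 and Bnip3 upward and Rubcnl downward. Nrbf2, a subunit of the PI3K complex that holds Atg14, rose by 0.68 at 4 months (SE 0.24, FDR 0.0420), 0.92 at 6 months (SE 0.20, FDR 0.00125) and 1.35 at 8 months (SE 0.24, FDR 0.000148 by limma), while Atg14 itself differed by -0.01 at 8 months (FDR 0.973). Snap29, a SNARE that joins autophagosomes to lysosomes, differed by 0.28, 0.47, 0.63 and 0.70 at the 4 ages (FDR 0.0255 at 2 months and 8.36e-07 at 6 months). Bnip3, a mitophagy receptor, differed by 0.80 at 6 months (SE 0.14, FDR 0.000153) and 0.51 at 8 months (FDR 0.0267). Rubcnl, whose protein promotes autophagosome maturation, differed by -0.46 at 4 months (FDR 0.0128), -0.75 at 6 months (SE 0.11, FDR 2.04e-05) and -0.57 at 8 months (FDR 0.00236 by limma).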

How the data were processed

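RNA of CD11b-selected microglia had been sequenced, and one table of gene signals for 32 libraries was used. Its values are log2 gene signals: the authors summed exon reads over runs, dropped exons with few counts in most samples, combined exons into 1 value per gene with a robust linear model, took log2 and set the libraries to one median. The build in the submitters' processing notes is GRCm38, and aligner, annotation and strand setting are not given in the sources used here. Such values keep no read depth, so no counting interval was given.

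Entrez numbers were matched to RefSeq symbols (17828 of 18588, 95.9%). Libraries were grouped by genotype and age from their labels. For the 28 libraries the authors kept, limma 3.58.1 (R 4.3.3) was fitted with 8 group means, 20 residual degrees of freedom and unmoderated variance, as in the study's factorial model, with Benjamini-Hochberg FDR over all genes in each contrast. No filter or pseudocount was used. Paralog ratios were tested by exact permutation within age. Fits were tested on simulated data. BLAST 2.17.0 against GENCODE M21 transcripts found members that share at least 95% identity over 200 or more bases with another gene (11 of 37). Named genes were the members past 1.5 fold at 1 or more ages, the member of each role with the largest mean difference and, of the further list, those past 1.5 fold; others (Ulk2, Ulk1, Atg7, Calcoco1, single markers and single values) were named after their values were seen. The members and lists were chosen with earlier results of these data known. Alternatives were moderated variance, all 32 libraries, only the 2 groups of an age, quantile normalization, genes above the 25th percentile of signal, a replicate block and each library left out.

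Whether same-numbered libraries are paired was checked from their deviations from the group means over all genes. The correlation was 0.131 to 0.153 in the 4 pairs at 6 months and 0.150 to 0.291 in the 3 pairs at 8 months. Differently numbered libraries reached at most 0.0913 at 6 months and -0.0281 at 8 months, so a pairing was clear at these ages. At 2 months same-numbered pairs gave 0.0649 to 0.167 and differently numbered ones -0.194 to 0.0816. These ranges overlapped, but each WT library of that age correlated most with its same-numbered rTg4510 library, so a pairing was partly seen. At 4 months the ranges were -0.0999 to 0.124 and -0.0709 to 0.154, and no pairing was seen. The main fit and the exact tests used no pairing at any age. The replicate block, an alternative run, paired the numbers at every age.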

Additional observations from a re-analysis of the deposited data

Results flagged for a closer look

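In 40 combinations of a named gene and a group of 4 libraries, 3 had 1 library far from the others by Dixon's test, which chance gives in about 1 in 20. Gabarap was at 7.02 in rTg4510 replicate 2 at 2 months, under the other 3 (7.26 to 7.30), and at 8.53 in rTg4510 replicate 3 at 6 months, over the other 3 (8.02 to 8.05). Sqstm1 was at 7.34 in rTg4510 replicate 1 at 2 months, over the other 3, which were all at 7.23.

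The difference in Optn between the genotypes was larger at 4 months than at 2 months by 0.99 (limma interaction FDR 0.0133).

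The libraries the authors left out were not in the main comparison. Of 12 values of the 6 members past 1.5 fold in the 2 rTg4510 libraries among them, 8 lay above every kept WT library of that age. In the 4-month library these were Gabarap at 7.82 (kept WT 6.78 to 6.91) and Sqstm1 at 8.66 (6.67 to 7.02). In the 8-month library they were Atg16l2 at 4.73 (3.74 to 4.51), Map1lc3b at 6.32 (5.49 to 5.84), Gabarap at 7.51 (6.71 to 6.95), Gabarapl1 at 6.08 (5.31 to 5.60), Sqstm1 at 7.92 (6.63 to 6.78) and Optn at 5.24 (2.88 to 3.68). The other 4 values were all in the 4-month library: Atg16l2 at 2.87 and Map1lc3b at 3.66 lay below every kept WT library (3.14 to 4.08 and 5.95 to 6.29), and Gabarapl1 at 5.62 and Optn at 3.65 lay within the WT range (5.57 to 5.91 and 3.50 to 3.83). In the left-out WT library at 8 months, Optn at 4.14 and Sqstm1 at 6.89 also lay above every kept WT library. Below every kept WT library lay Atg16l2, Map1lc3b and Gabarapl1 at 8 months and Map1lc3b, Gabarap, Gabarapl1 and Optn at 4 months. The remaining values of the 6 members there lay within the WT range. The 6 members had been picked for a rise in the kept libraries, and the share of all genes was not counted.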

How the results depend on the processing

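The counts of members past 1.5 fold at 6 and 8 months and those higher at 6 and 8 months and in the mean of the ages stayed within 1.5 times under each alternative run, and the 10 ratios kept their side of the threshold. With all 32 libraries 0 members were higher at 2 months, 3 were higher and 3 lower at 4 months, 1 was lower at 6 months and 1 at 8 months, 6 changed with age in rTg4510 and 0 in WT, and Map1lc3b turned to -0.14 at 4 months. With only the 2 groups of an age fitted, residual degrees of freedom were fewer. By this fit 1 was higher at 2 months, 3 were higher and 0 lower at 4 months, and 0 were lower at 8 months. The 1 at 2 months was Gabarapl1 (FDR 0.0382), while the calls of Sqstm1 (FDR 0.0669) and Gabarapl2 (FDR 0.168) at that age were lost. The calls of Atg16l2 at 4 and 8 months and of Atg7 at 8 months were also among those lost. With quantile normalization 1 was higher at 2 months, where the call of Sqstm1 was lost (FDR 0.0526), and 3 changed with age in WT. The genotype difference then changed for 4 from 2 to 4 months and for 1 from 4 to 8 months. Without the genes whose signal was under the 25th percentile, which leaves 33 members and drops Optn and Atg16l2, 3 were higher and 2 past 1.5 fold at 4 months and 2 changed with age in WT. With the replicate block 1 was higher at 2 months, and the genotype difference changed for 2 from 2 to 4 months and for 1 from 4 to 8 months; beside the calls named in the report and those of Atg4c, Nbr1 and Ulk1 in the mean of the ages, Ulk1 and Wipi1 at 4 months, Map1lc3b at 4 months, Gabarapl2 at 2 months and Gabarap from 2 to 4 months, it changed none. The cause of these shifts was not tested. Without 1 library each, the count higher at 2 months ran from 0 to 2 (0 without WT replicate 2 or rTg4510 replicate 2, 3 or 4 of that age), that lower at 4 months from 3 to 6 (3 without rTg4510 replicate 2), that lower at 8 months from 2 to 4 (2 without rTg4510 replicate 3), the changes of the genotype difference from 1 to 2 (2 to 4 months) and from 0 to 1 (4 to 8 months), and the changes with age in WT from 0 to 3. Groups of 3 or 4 pools limit what small shifts can be resolved.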
